A study of Mus musculus with 4 samples.

Results

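Necroptosis and BCL2 family genes were read in colonic epithelial cells of mice labelled as lacking Bmi1, Mel18 or both, related subunits of Polycomb repressive complex 1, which keeps developmental genes silent. The genes were 10 named members, taken by platform gene symbol: the necroptosis genes Ripk1, Ripk3, Mlkl, Zbp1 and Casp8, the BH3-only genes Bmf and Bcl2l11, and the anti-apoptotic genes Bcl2, Bcl2l1 and Mcl1. For 9 of the 10 the annotation used here named at least 1 probe set, giving 28 probe sets among the 45037 on the array and 9 genes among the 18193 with a probe set of 1 symbol. Ripk1 is not analysed here.

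The groups were Bmi1ΔIEC, Mel18ΔIEC, DKO (labelled Bmi1ΔIEC Mel18ΔIEC, so both genes lost) and WT, all on the C57BL/6 background, with 1 array hybridised for each. ΔIEC marks loss in intestinal epithelial cells, and the labels do not name what drives the deletion. Sex-matched mice of 6 to 8 weeks in all 4 groups had received azoxymethane, a carcinogen, at 10 mg/kg, and from 5 days later had drunk 3.5% dextran sulfate sodium, which injures the colon lining, for another 5 days. The cells were released from opened colons with EDTA on day 12, with no sorting step in the protocol. The series description sets 1 beside DKO, 3 beside Bmi1ΔIEC, 2 beside Mel18ΔIEC and 4 beside WT. These numbers match the order in which the arrays are listed, and the number of mice behind an array is not given.

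Values are RMA intensities, a background-corrected and normalised brightness per probe set, and differences are log2 differences between single arrays. With 1 array per genotype no difference has a replicate check, and no p-value or SD is given. A gene counts as higher or lower when it differs at least 2-fold and its higher value reaches the floor, 33.4 units, the median of all probe-set values. Medians of the arrays lay between 32.1 and 34.2 units. The closest arrays were Bmi1ΔIEC and Mel18ΔIEC, whose probe sets correlated at 0.990 (Spearman), followed by DKO and WT at 0.984. Neither targeted gene was lower on an array labelled for its loss: the 2 Bmi1 probe sets read 334 and 339 on the Bmi1ΔIEC array and 432 and 399 on the DKO array, against 116 and 88.4 on the WT array. The brighter Pcgf2 (Mel18) probe set read 39.8 on the Mel18ΔIEC array and 32.0 on the DKO array, against 30.2 on the WT array. The place of the probes relative to the deleted exons is not given, so these values check no label, and the arrays are named by their labels throughout. All 14 epithelial markers read above the floor on every array, with Epcam between 9819 and 10930 units.

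Necroptosis is a lytic form of cell death that runs when caspase-8 is inactive. RIPK1, downstream of death receptors, or ZBP1, a sensor of Z-form nucleic acids, engages the kinase RIPK3 through a shared RHIM motif, and RIPK3 phosphorylates the pseudokinase MLKL, which permeabilises the plasma membrane. Mice that lack caspase-8 in the gut epithelium lose Paneth cells and develop intestinal inflammation through this route. In the mitochondrial pathway of apoptosis, BH3-only proteins such as BMF and BIM (gene Bcl2l11) bind and neutralise BCL2, BCL-XL (gene Bcl2l1) and MCL1. MCL1 and BCL-XL are known to keep intestinal epithelial cells alive.

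Across the members, the order of the arrays split the same way for each representative probe set, the probe set of a gene with the highest mean. On 9 of 9, both single-knockout arrays lay on one side of both the DKO and the WT array. Ripk3, Mlkl, Zbp1, Casp8, Bcl2l11, Bcl2l1 and Mcl1 read lower on both single-knockout arrays than on either of the others, and Bmf and Bcl2 read higher. This order was common on these arrays: 63.8% of the 12156 genes that reached the floor had it, 23.2% with the single knockouts under and 40.5% with them over. After centring each array on its genes that reached the floor these shares became 32.2% and 31.4%, while the members still divided 7 under and 2 over. Centring on the array medians moved the shares the other way, to 18.0% and 47.7%, and quantile normalisation gave 26.7% and 35.0%. The members divided 7 and 2 under both. Without probe sets of the _s_at, _x_at and _a_at types 6 members lay under and 1 over. Among the 12 other member probe sets that reached the floor, 3 had the order, and when all probe sets of a gene were averaged 4 members lay under and 1 over.

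**Figure D1:**
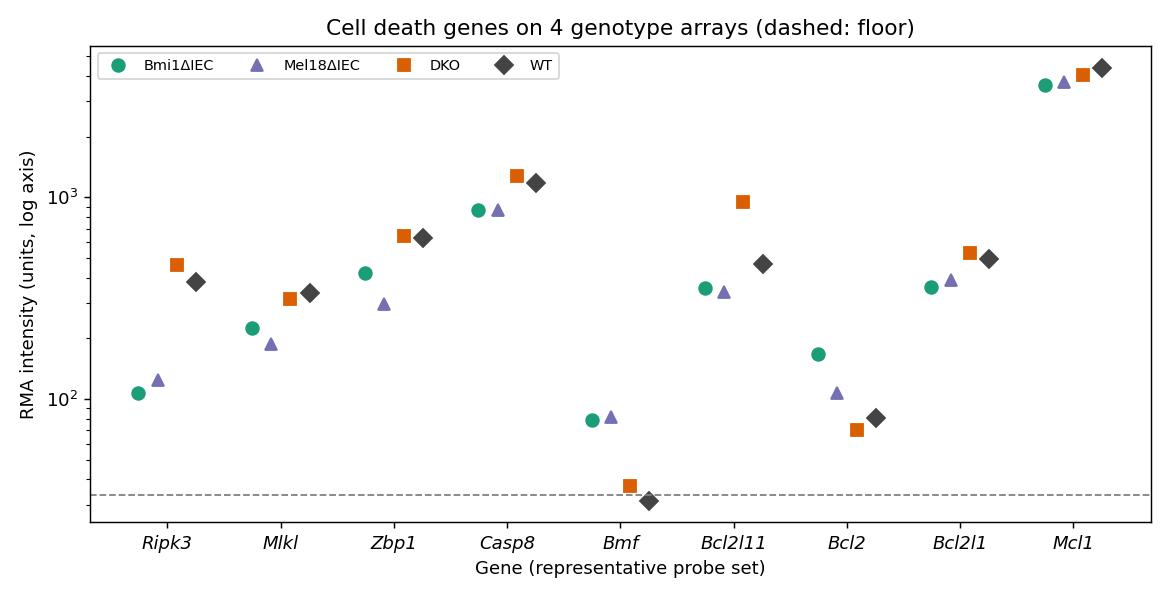
Points give the RMA intensity (log axis) of the representative probe set of each of the 9 genes on the Bmi1ΔIEC, Mel18ΔIEC, DKO and WT arrays, 1 array per genotype, and the dashed line is the floor of 33.4 units. Ripk3 shows the widest spread, with 108 and 124 units on the single-knockout arrays, 461 on the DKO array and 382 on the WT array.

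Ripk3, at chr14:55784995-55788857 on GRCm38.p6, differed most. Its only probe set, 1448449_at, read 108 units on the Bmi1ΔIEC array, 124 on the Mel18ΔIEC array and 461 on the DKO array, against 382 on the WT array. The single-knockout arrays were both low and close to each other, and the DKO array was slightly above WT. Relative to WT, Ripk3 was 3.55-fold lower on the Bmi1ΔIEC array (-1.83) and 3.08-fold lower on the Mel18ΔIEC array (-1.62), and it differed by 0.27 on the DKO array. In the comparisons with WT, 2.9% of the genes tested were lower on the Bmi1ΔIEC array, 2.52% on the Mel18ΔIEC array and 2.2% on the DKO array. The DKO array read 3.71-fold over the Mel18ΔIEC array (1.89) and 4.28-fold over the Bmi1ΔIEC array (2.10). With 1 probe set that read over the floor on every array, the values of Ripk3 could be moved by the 3 rescalings alone among the alternatives tried. Under these the difference from WT lay between -1.95 and -1.73 on the Bmi1ΔIEC array and between -1.70 and -1.56 on the Mel18ΔIEC array.

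Zbp1, at chr2:173206612-173218959, read lower on both single-knockout arrays than on the DKO and WT arrays on both of its probe sets, by unlike amounts. The brighter one, 1429947_a_at, read 422 units on the Bmi1ΔIEC array, 295 on the Mel18ΔIEC array and 640.5 on the DKO array, against 632 on the WT array. The other, 1419604_at, read 245, 211 and 828 units on those arrays in the same order, against 603 on the WT array. On the Mel18ΔIEC array both were at least 2-fold lower than WT, at -1.10 and -1.52. On the Bmi1ΔIEC array the brighter one was within 2-fold, at -0.58, and the other lower, at -1.30. The DKO array differed from WT by 0.02 and 0.46, both within 2-fold. It lay above the Mel18ΔIEC array by 1.12 on the brighter probe set and 1.98 on the other, and above the Bmi1ΔIEC array by 0.60 and 1.75, the 0.60 being within 2-fold.

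Mlkl, the pseudokinase at the end of the pathway, read 226 units on the Bmi1ΔIEC array, 188 on the Mel18ΔIEC array and 312 on the DKO array, against 337 on the WT array. Its differences from WT were -0.58, -0.84 and -0.11, all within 2-fold. Casp8, the protease that blocks the pathway, read 861 units on the Bmi1ΔIEC array, 865 on the Mel18ΔIEC array and 1283 on the DKO array, against 1177 on the WT array. It was within 2-fold in every comparison, and its differences from WT on the single-knockout arrays were the same to 2 decimals, -0.45 and -0.45. Of the 4 necroptosis genes measured, Ripk3 and 1 probe set of Zbp1 were lower on both single-knockout arrays, whereas Mlkl and Casp8 lay in the same direction without passing 2-fold.

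The BH3-only genes did not share a pattern. Bmf lies at chr2:118528757-118549686 and encodes a protein known to be released on loss of cell attachment. The representative Bmf probe set, 1454880_s_at, read 79.1 units on the Bmi1ΔIEC array, 81.3 on the Mel18ΔIEC array and 37.2 on the DKO array, against 31.4 on the WT array. The single-knockout arrays were high, and the DKO and WT arrays lay close to the floor, with WT under it. Relative to WT, Bmf was 2.52-fold higher on the Bmi1ΔIEC array (1.33) and 2.59-fold higher on the Mel18ΔIEC array (1.37). The shares of genes tested that were higher were 5.78% on the Bmi1ΔIEC array, 3.16% on the Mel18ΔIEC array and 2.13% on the DKO array. Set against the floor itself, the Bmf values were 2.37-fold and 2.44-fold above it. The suffix of this probe set marks probes that can match more than 1 transcript. A second Bmf probe set, 1458325_x_at, did not show the difference, with 41.3 units on the Bmi1ΔIEC array, 33.7 on the Mel18ΔIEC array and 40.9 on the DKO array, against 46.8 on the WT array. The third stayed under the floor on all 4 arrays.

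Bcl2l11, which encodes BIM and lies at chr2:128126038-128162547, was higher on the DKO array and not on either single-knockout array. Its representative probe set, 1456005_a_at, read 356 units on the Bmi1ΔIEC array, 341 on the Mel18ΔIEC array and 950 on the DKO array, against 465 on the WT array. The DKO value was 2.04-fold over WT (1.03), just past the 2-fold rule, while the single knockouts differed from WT by -0.39 and -0.45. The next brightest probe set, 1435448_at, read 195, 192 and 353 units on those arrays, against 185 on the WT array, a DKO difference of 0.93 that was within 2-fold. All 3 Bcl2l11 probe sets that reached the floor were brightest on the DKO array, with DKO minus WT between 0.41 and 1.03. Over the Mel18ΔIEC array the representative probe set was 2.78-fold higher (1.48), and over the Bmi1ΔIEC array 2.67-fold (1.42). In these comparisons 1435448_at (0.88 and 0.86) and 1456006_at (0.36 and 0.49) stayed within 2-fold. With the probe sets of the gene averaged the differences were 0.77 and 0.74, and neither call held. Against the Mel18ΔIEC array 3.9% of genes tested were higher on the DKO array and 4.55% lower, together 8.45%. Against the Bmi1ΔIEC array these shares were 4.36% and 8.01%, together 12.4%.

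**Figure D2:**
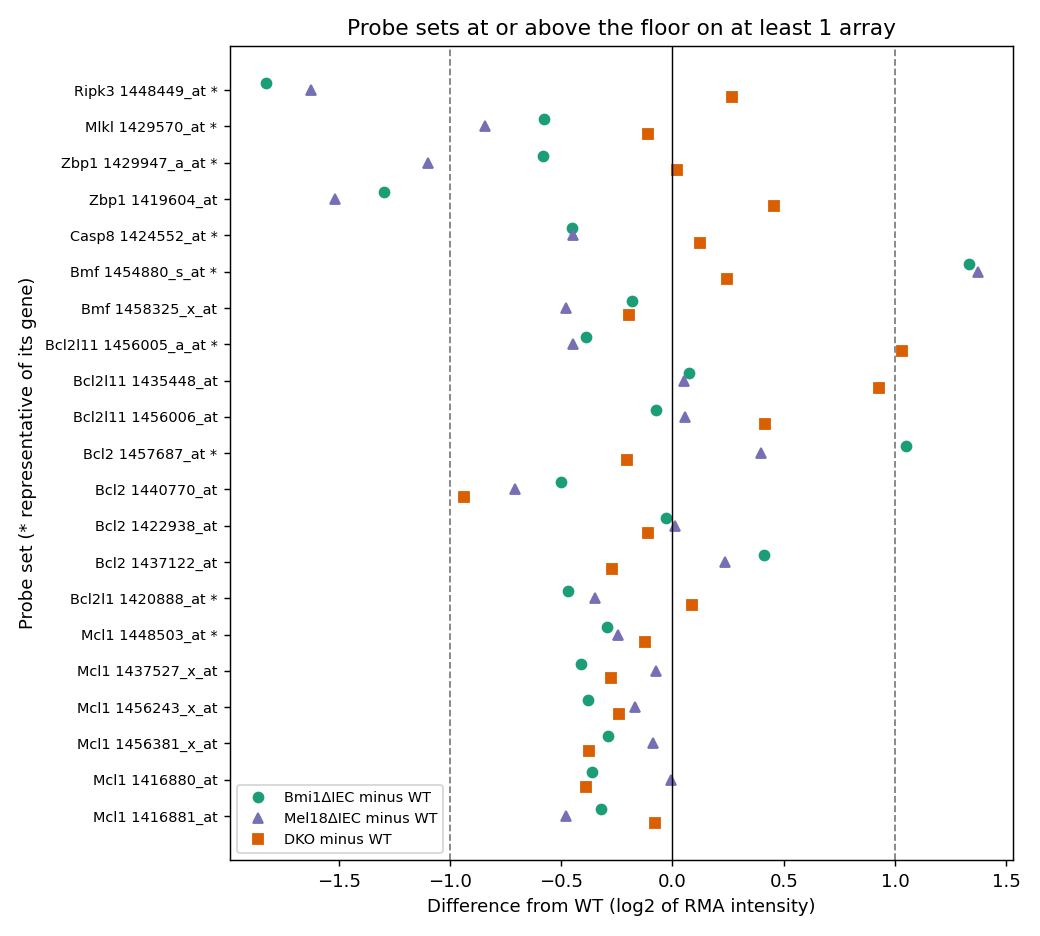
Each row is one of the 21 member probe sets at or above the floor on at least 1 array, and points give its log2 difference from the WT array for the Bmi1ΔIEC, Mel18ΔIEC and DKO arrays, with dashed lines at 2-fold. Ripk3 and both Zbp1 probe sets lie left of 0 on the single-knockout arrays, the 2 Bmf probe sets disagree, and the Bcl2l11 probe sets lie right of 0 on the DKO array.

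Among the anti-apoptotic genes, Mcl1 and Bcl2l1 stayed within 2-fold in every comparison. Mcl1 read 3587 units on the Bmi1ΔIEC array, 3715 on the Mel18ΔIEC array and 4040.1 on the DKO array, against 4400 on the WT array. All 6 of its probe sets were lower than WT on each knockout array, by 0.01 to 0.48 on the log2 scale. Bcl2l1 read 359 units on the Bmi1ΔIEC array, 390 on the Mel18ΔIEC array and 528 on the DKO array, against 497 on the WT array, and its 3 other probe sets were under the floor throughout.

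Bcl2 gave no single direction. Its representative probe set, 1457687_at, read 168 units on the Bmi1ΔIEC array, 107 on the Mel18ΔIEC array and 70.4 on the DKO array, against 81.0 on the WT array. It was 2.07-fold higher than WT on the Bmi1ΔIEC array (1.05), a call lost after centring on the genes that reached the floor (0.93), after quantile normalisation (0.97) and when the probe sets of the gene were averaged (0.18). A second Bcl2 probe set, 1440770_at, read lower on all 3 knockout arrays, with 54.2 units on the Bmi1ΔIEC array, 46.9 on the Mel18ΔIEC array and 40.0 on the DKO array, against 76.6 on the WT array. The 4 Bcl2 probe sets that reached the floor ranged from -0.50 to 1.05 on the Bmi1ΔIEC array. On the DKO array all 4 were lower than WT, between -0.94 and -0.11, each within 2-fold.

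In counts, 2 of the 9 members (Bmf and Bcl2) were higher than WT and 1 (Ripk3) lower on the Bmi1ΔIEC array. On the Mel18ΔIEC array 1 (Bmf) was higher and 2 (Ripk3 and Zbp1) lower. On the DKO array 1 (Bcl2l11) was higher and none lower. Across all genes tested 8.68% passed the rule in either direction on the Bmi1ΔIEC array, 5.68% on the Mel18ΔIEC array and 4.34% on the DKO array. The median member differed from WT by -0.45 on the Bmi1ΔIEC array and -0.45 on the Mel18ΔIEC array, where the median of all genes tested was 0.13 and 0.07. On the DKO array the medians were 0.09 for the members and -0.01 for all genes.

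The necroptosis kinases were set beside the BH3-only genes, and with Ripk1 not analysed the kinase is Ripk3. On the Bmi1ΔIEC array Ripk3 differed from WT by -1.83 and the median of Bmf and Bcl2l11 by 0.47, a gap of -2.30. On the Mel18ΔIEC array the 2 values were -1.62 and 0.46, a gap of -2.08. On the DKO array they were 0.27 and 0.64, a gap of -0.37. With Mlkl averaged in, the gaps were -1.67, -1.69 and -0.56 on the Bmi1ΔIEC, Mel18ΔIEC and DKO arrays. Each BH3-only median spans unlike genes: on the single-knockout arrays Bmf was above WT and Bcl2l11 below it, and Ripk3 lay below both.

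Loss of each gene can also be read where the other was already lost, with no array shared between the 2 readings of that gene. The readings for Bmi1 and for Mel18 draw on the same 4 arrays. The gap between backgrounds is therefore the same number for both losses and counts once. For loss of Bmi1, Ripk3 differed by 1.89 between the DKO and Mel18ΔIEC arrays and by -1.83 between the Bmi1ΔIEC and WT arrays. For loss of Mel18 it differed by 2.10 between the DKO and Bmi1ΔIEC arrays and by -1.62 between the Mel18ΔIEC and WT arrays. The representative Bmf probe set ran the other way, at -1.13 and -1.09 in the comparisons from a single knockout and at 1.33 and 1.37 in those from WT. Both single knockouts were lower than WT for 1.64% of genes, as Ripk3 was, and both were higher for 2.42%, as Bmf was. Opposite calls, at least 2-fold on both backgrounds, occurred in the direction of Ripk3 for 1.26% of genes for Bmi1 loss and 1.17% for Mel18 loss, and in the direction of Bmf for 1.76% and 1.54%. The sum of the DKO and WT values minus both single knockouts was 1 or more on the log2 scale for 5 members (Ripk3 3.72, Bcl2l11 1.86, Zbp1 1.70, Mlkl 1.31 and Casp8 1.02), against 8.77% of all genes that reached the floor. It was -1 or less for 2 members (Bmf -2.46, with its WT value of 31.4 units under the floor, and Bcl2 -1.65), against 18.7% of all genes. With a gene's probe sets averaged these counts became 4 and 0 members, and without probe sets of the _s_at, _x_at and _a_at types 4 and 1. For 1 array per genotype this sum carries the error of all 4 arrays.

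**Figure D3:**
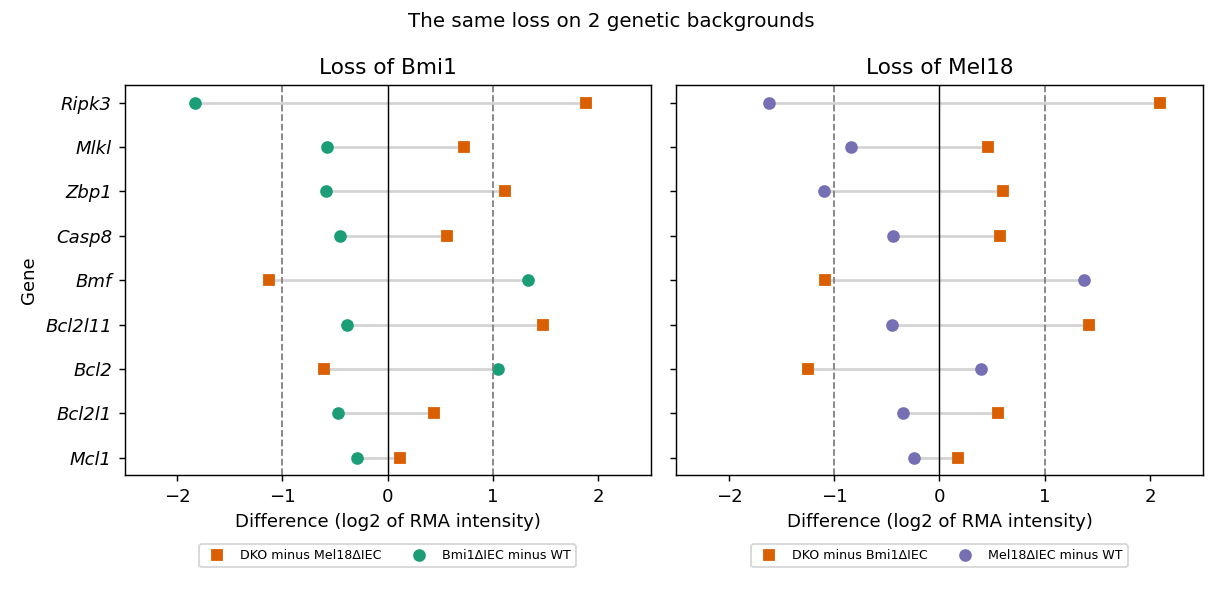
For each of the 9 genes, the left panel sets DKO minus Mel18ΔIEC (squares) beside Bmi1ΔIEC minus WT (circles) and the right panel DKO minus Bmi1ΔIEC beside Mel18ΔIEC minus WT, as log2 differences between single arrays with dashed lines at 2-fold. Ripk3 lies at 1.89 (square) and -1.83 (circle) on the left and at 2.10 and -1.62 on the right, and Bmf lies on the opposite sides of 0.

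The summed levels of 4 white blood cell marker lists were lower on both single-knockout arrays than on the WT array, the direction in which Ripk3 and Zbp1 also lay. The cells were not sorted, and in such a bulk preparation fewer cells of a type and less RNA per cell cannot be told apart. The summed level of 6 pan-leukocyte genes was 1095 units on the Bmi1ΔIEC array, 836 on the Mel18ΔIEC array and 2136 on the DKO array, against 1820 on the WT array. On the Mel18ΔIEC array 5 of these 6 were at least 2-fold lower than WT, among them Ptprc (CD45) at -1.13, and on the Bmi1ΔIEC array 1 of 6, Cd53 at -1.01. With the probe sets of each gene averaged, 1 of 6 was lower on the Mel18ΔIEC array and 0 of 6 on the Bmi1ΔIEC array. The 17 macrophage and dendritic cell markers summed to 3006, 2861 and 4892 units on the Bmi1ΔIEC, Mel18ΔIEC and DKO arrays, against 4666 on the WT array, with 9 of 17 lower on the Bmi1ΔIEC array and 3 of 17 on the Mel18ΔIEC array. Much of these sums was Cd14, the lipopolysaccharide co-receptor, which read 1549 units on the Bmi1ΔIEC array, 756 on the Mel18ΔIEC array and 722 on the DKO array, against 1199 on the WT array. Without Cd14 the other 16 summed to 1458, 2105 and 4170.1 units on the knockout arrays in that order, against 3467 on the WT array. The 12 neutrophil markers summed to 299, 383 and 2285 units, against 2446 on the WT array. Under the floor lay 11 of these 12 on the Bmi1ΔIEC array, 7 on the Mel18ΔIEC array and 4 on the DKO array, against 4 on the WT array, so most of their differences on the single-knockout arrays rest on values under the floor. Most of the WT sum was S100a8 (935 units), S100a9 (762) and Ltf (384). Of the 8 neutrophil markers tested, 5 were at least 2-fold lower than WT on the Bmi1ΔIEC array and 5 on the Mel18ΔIEC array. The 14 T and NK cell markers summed to 1014, 860.0 and 2461 units on the same arrays, against 1448 on the WT array, with 2 of the 14 at least 2-fold lower on the Bmi1ΔIEC array, 4 on the Mel18ΔIEC array and 3 higher on the DKO array. Across all genes tested 2.9% were lower than WT on the Bmi1ΔIEC array and 2.52% on the Mel18ΔIEC array, and 2.13% were higher on the DKO array. The part of white blood cells in the Ripk3 and Zbp1 values was not tested.

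Of the other cell type lists, B and plasma cell, endothelial and epithelial markers had the same order in their sums with smaller differences from WT on the single-knockout arrays, and fibroblast markers did not have it. The 8 B and plasma cell markers summed to 1219, 1200.2 and 2312 units on the Bmi1ΔIEC, Mel18ΔIEC and DKO arrays, against 1276 on the WT array. The 11 fibroblast markers summed to 1920.2, 4214 and 6373 units, against 4071 on the WT array, so that the single knockouts were unlike each other. The 8 endothelial markers summed to 326, 307 and 349 units, against 331 on the WT array, and at least 4 of the 8 were under the floor on each array. The 14 epithelial markers summed to 85231, 90486 and 103681 units, against 99674 on the WT array. Of the epithelial markers 1, Krt20, was lower on the Bmi1ΔIEC array, at -1.29.

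**Figure D4:**
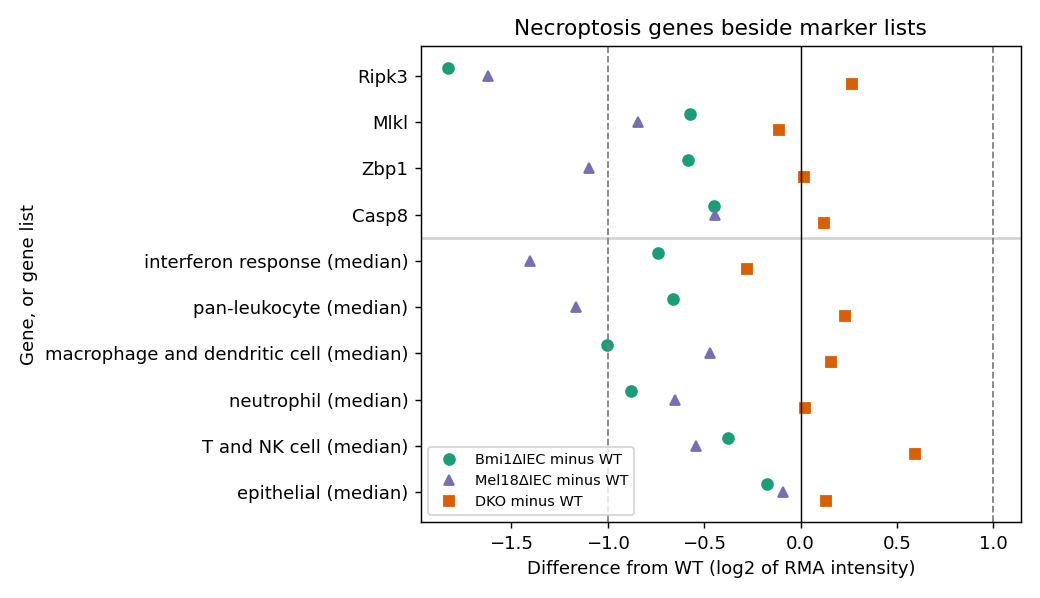
Points give log2 differences from the WT array of Ripk3, Mlkl, Zbp1 and Casp8 (above the line) and the median difference over all measured genes of 6 lists, values under the floor included (below it), for the Bmi1ΔIEC, Mel18ΔIEC and DKO arrays. Ripk3 lies at -1.83 and -1.62 on the single-knockout arrays, the neutrophil median at -0.88 and -0.65, and the epithelial median stays within -0.17 and 0.13.

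Genes with the most similar differences from WT were found by the smallest Euclidean distance over the 3 comparisons among 11640 genes. For Ripk3 these were Cap1, an actin-regulating protein (distance 0.10), Capg, an actin-capping protein (0.18), and Tyrobp, the signalling adaptor of myeloid and NK cells (0.22). Tyrobp read 135 units on the Bmi1ΔIEC array, 171 on the Mel18ΔIEC array and 707 on the DKO array, against 544 on the WT array. For Zbp1 they were the interferon-induced Gbp7 (0.10), Nfkbie, an inhibitor of NF-kB (0.11), and Btnl2 (0.13). The nearest to Bmf were Mylip, a ubiquitin ligase for the LDL receptor (0.07), Fbxo21 (0.16) and Tcea3 (0.17). The nearest to Bcl2l11 were Phlda1 (0.14), the retinol dehydrogenase Rdh10 (0.15) and the inflammasome receptor Naip5 (0.18). For Bcl2 they were Fggy (0.08), Fgfbp3 (0.08) and the retinaldehyde dehydrogenase Aldh1a1 (0.10). Of these, Fgfbp3 read 35.8 units on the Bmi1ΔIEC array and lay under the floor on the other arrays, WT included. Each distance rests on 3 differences that share the WT array.

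Zbp1 is itself induced by interferon, as are Mlkl and Casp8 in many cells, so an interferon response list was set beside them. Of its 27 members measured, 10 were lower than WT on the Bmi1ΔIEC array, 17 on the Mel18ΔIEC array and 4 on the DKO array, with none higher. Across all genes tested, 2.9%, 2.52% and 2.2% were lower on these arrays. The list medians were -0.74, -1.40 and -0.28. Xaf1, a pro-apoptotic interferon-induced gene, was the lowest, with 19.5 units on the Bmi1ΔIEC array and 23.6 on the Mel18ΔIEC array, both under the floor, and 1164 on the DKO array, against 1496 on the WT array. The antiviral Rsad2 differed by -1.84, -2.06 and -0.28 from WT, Oas2 by -1.85, -2.00 and -0.73, and Ifit2 by -1.32, -3.29 and -1.62. The chemokine Cxcl9 differed by -0.14, -2.34 and -1.52, and Trim30a by -1.58, -1.66 and -0.52. Gbp2 and Nlrc5 were the other members lower on the DKO array, at -1.08 and -1.07.

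Genes for signalling proteins upstream of RIPK1 mostly stayed within 2-fold. Of 26 tested, 2 were lower than WT on the Bmi1ΔIEC array, 2 on the Mel18ΔIEC array and 1 on the DKO array, none was higher, and the medians were -0.03, 0.00 and -0.01. The shares lower among all genes tested were 2.9%, 2.52% and 2.2%. Tnf, the ligand that starts the pathway, read 53.1 units on the Bmi1ΔIEC array, 54.5 on the Mel18ΔIEC array and 89.3 on the DKO array, against 136 on the WT array. It was lower on both single-knockout arrays (-1.36 and -1.32) and within 2-fold on the DKO array (-0.61). Tnfaip3 (A20), which restrains NF-kB and cell death, was lower on the Bmi1ΔIEC array, at -1.02, and the death ligand gene Tnfsf10 (TRAIL) on the Mel18ΔIEC and DKO arrays, at -1.24 and -1.02. With the probe sets of each gene averaged, 1 gene of this list was lower on the Bmi1ΔIEC array.

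Of the other BH3-only genes 7 were measured, and none passed 2-fold against WT on a single-knockout array. Among all genes tested 8.68% passed it in either direction on the Bmi1ΔIEC array, 5.68% on the Mel18ΔIEC array and 4.34% on the DKO array. Bik read 120 units on the Bmi1ΔIEC array, 128 on the Mel18ΔIEC array and 38.9 on the DKO array, against 78.1 on the WT array. It was lower than WT on the DKO array, at -1.01, a call lost when the probe sets of a gene were averaged. Pmaip1 (NOXA) read 435.0 units on the Bmi1ΔIEC array, 406 on the Mel18ΔIEC array and 915 on the DKO array, against 578 on the WT array, within 2-fold of WT on each. Like the representative Bcl2l11 probe set, Pmaip1 was higher on the DKO array than on the Mel18ΔIEC array (1.17) and the Bmi1ΔIEC array (1.07). Bik went the other way, lower on the DKO array than on the Mel18ΔIEC array (-1.72) and the Bmi1ΔIEC array (-1.62). In these comparisons 8.45% and 12.4% of all genes tested passed the rule in either direction. The pore-forming genes Bak1 and Bok, the 1 further anti-apoptotic gene above the floor, Bcl2l2, and the 3 BCL2-like genes tested were within 2-fold in all 5 comparisons.

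The apoptosome and caspase list had no gene past 2-fold among 10 in any comparison with WT. Its Apaf1, the scaffold that activates caspase-9, read 193 units on the Bmi1ΔIEC array, 222 on the Mel18ΔIEC array and 473 on the DKO array, against 285 on the WT array. It was higher on the DKO array than on the Mel18ΔIEC array (1.09) and the Bmi1ΔIEC array (1.30). The call over the Mel18ΔIEC array was lost when the probe sets of a gene were averaged. Among 15 pyroptosis genes, those of the other lytic form of cell death, 1 was higher and 2 lower on the Bmi1ΔIEC array, 2 lower on the Mel18ΔIEC array and 1 higher on the DKO array. Among all genes tested 8.68%, 5.68% and 4.34% passed the rule in either direction on these arrays. Of the pyroptosis genes Il1b was the lowest on the single-knockout arrays, at -3.59 on the Bmi1ΔIEC array and -3.17 on the Mel18ΔIEC array, and it lay at -0.32 on the DKO array. Gsdmd, the pore that executes pyroptosis, read 836 units on the Bmi1ΔIEC array, 952 on the Mel18ΔIEC array and 1850.3 on the DKO array, against 1856 on the WT array, and passed 2-fold on the Bmi1ΔIEC array (-1.15) but not on the Mel18ΔIEC array (-0.96). The other calls were Gsdme, higher on the Bmi1ΔIEC array (1.48), Casp12, lower on the Mel18ΔIEC array (-1.17), and Naip6, higher on the DKO array (1.36). With the probe sets of each gene averaged, 1 pyroptosis gene was lower on the Mel18ΔIEC array.

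Polycomb complexes are known to bind promoters rich in CpG dinucleotides, so the sequences upstream of 3 genes that passed 2-fold are shown with each CpG in capitals, 250 bases that end at the annotated start of the gene, from RefSeq on build GRCm38.p6 and read 5′ to 3′ on the gene's strand.
Ripk3, chr14:55788858-55789107, minus strand: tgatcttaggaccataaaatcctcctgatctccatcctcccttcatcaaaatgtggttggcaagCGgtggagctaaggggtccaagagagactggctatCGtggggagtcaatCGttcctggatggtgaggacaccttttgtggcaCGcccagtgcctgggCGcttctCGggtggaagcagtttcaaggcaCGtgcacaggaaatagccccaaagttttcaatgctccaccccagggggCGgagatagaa
Bmf, chr2:118549687-118549936, minus strand: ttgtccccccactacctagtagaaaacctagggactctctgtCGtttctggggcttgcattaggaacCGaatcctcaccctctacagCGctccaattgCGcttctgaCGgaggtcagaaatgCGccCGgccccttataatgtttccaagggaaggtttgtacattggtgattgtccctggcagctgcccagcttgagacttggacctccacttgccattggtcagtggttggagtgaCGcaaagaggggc
Bcl2l11, chr2:128125788-128126037, plus strand: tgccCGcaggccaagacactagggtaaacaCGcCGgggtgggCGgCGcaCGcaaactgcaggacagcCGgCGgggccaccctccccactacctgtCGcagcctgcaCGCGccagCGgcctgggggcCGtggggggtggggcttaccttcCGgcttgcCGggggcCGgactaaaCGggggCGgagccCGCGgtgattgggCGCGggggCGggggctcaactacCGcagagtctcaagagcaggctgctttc
The Ripk3 and Bmf windows shown held 8 CpGs each, and the Bcl2l11 window held 24, against a median of 6 over 32851 promoter windows of the same length. Over the 15 windows listed for 9 members (Zbp1 had none listed), the number ranged from 0 for a Bcl2l1 start to 36 for Bcl2. Bmf has 3 listed starts, whose windows held 3, 8 and 5, and Bcl2l11 has 2, with 24 and 30, and those shown lie at the outer end of the annotated genes. Mlkl and Casp8 held 5 each and Mcl1 held 26. The interferon motif GAAANNGAAA, searched on both strands, occurred in none of the 15 and in 2.98% of all windows. The STAT motif TTCNNNGAA occurred in 1, a Ripk1 window, and in 7.02% of all windows. A match or its lack describes these letters in these windows and nothing more.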

How the data were processed

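Total RNA (200 ng) of each sample was labelled with biotin and hybridised to a Mouse 430 2.0 array, per the labels' protocols. The submitters' processing notes name Affymetrix Expression Console and RMA without a version. The deposited table holds the authors' intensities, 1 per probe set and array, on a linear scale. Joint or separate summarisation of the arrays is not stated. Log2 was taken with no pseudocount and no further scaling.

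Of 45037 probe sets, the annotation gave 34945 exactly 1 symbol and 932 several, and 9160 are unnamed here. Symbols were updated through gene identifiers (34741 matched) to the RefSeq gene table of GRCm38.p6. A gene was read on its probe set with the highest mean, and every member probe set is described too. The genes, gene lists and rules were chosen with earlier results of these data known. Named genes were all members, genes of the lists past 2-fold (the 4 with the largest differences where there were more), a few cell type markers, and the 3 nearest genes to each member past 2-fold against WT. Nothing was tested between genotypes, since each has 1 array, and precision is limited by that number. Alternatives were averaging a gene's probe sets, no floor, a floor at percentile 75, 2 centrings, quantile normalization, a 1.5-fold rule and leaving out probe sets of the _s_at, _x_at and _a_at types. Computations used Python 3.11.15, pandas 2.3.3 and numpy 2.4.6.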

Additional observations from a re-analysis of the deposited data

Results flagged for a closer look

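Ripk3 and Bmf drew attention because the same loss went in opposite directions on the 2 genetic backgrounds, each read on its representative probe set. For loss of Bmi1, Ripk3 differed by 1.89 between the DKO and Mel18ΔIEC arrays and by -1.83 between the Bmi1ΔIEC and WT arrays. For loss of Mel18 it differed by 2.10 between the DKO and Bmi1ΔIEC arrays and by -1.62 between the Mel18ΔIEC and WT arrays. Bmf differed by -1.13 and 1.33 for loss of Bmi1 and by -1.09 and 1.37 for loss of Mel18, in the same order. This rests on 1454880_s_at, whose WT value of 31.4 units lay under the floor. On the other Bmf probe set that reached the floor, 1458325_x_at, all these differences were within 2-fold. They were 0.28 and -0.18 for loss of Bmi1 and -0.02 and -0.48 for loss of Mel18. The readings for Bmi1 and for Mel18 draw on the same arrays, so the gap between backgrounds is the same number for both losses. Both losses reverse sign in any gene whose 2 single-knockout values lie on one side of both DKO and WT. Of the 12156 genes that reached the floor, 63.8% had this order. Opposite calls of at least 2-fold in the direction of Ripk3 occurred for 1.26% of genes for Bmi1 loss and 1.17% for Mel18 loss. In the direction of Bmf the shares were 1.76% and 1.54%. With 1 array per genotype the difference between backgrounds was not tested.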

How the results depend on the processing

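No paired analysis was possible because each genotype has 1 array. For the same reason no array could be left out. The 4 Ripk3 calls and the 2 Zbp1 calls kept direction and side of the threshold in the alternatives run, but Ripk3 has 1 probe set over the floor on every array, so that 3 rescalings alone could move its values. In the main reading 3 members were higher and 1 lower on the DKO array than on the Mel18ΔIEC array. Against the Bmi1ΔIEC array 2 were higher and 2 lower. Of all genes tested 3.9% were higher and 4.55% lower in the first comparison, and 4.36% and 8.01% in the second. Averaging a gene's probe sets left 0 members higher than WT on the Bmi1ΔIEC, Mel18ΔIEC and DKO arrays, and 0 lower on the DKO array than on either the Mel18ΔIEC or the Bmi1ΔIEC array. A floor at percentile 75 gave 1 higher on the Bmi1ΔIEC array, 0 on the Mel18ΔIEC array, and on the DKO array 0 lower than on the Mel18ΔIEC array and 1 lower than on the Bmi1ΔIEC array. Centring on the genes that reached the floor gave 1 higher on the Bmi1ΔIEC array than on WT and 1 lower on the DKO array than on the Bmi1ΔIEC array. Quantile normalization gave 1 higher on the Bmi1ΔIEC array, and the 1.5-fold rule gave 2 lower on the DKO array than on the Mel18ΔIEC array. The share of all genes past the rule is not given for the alternatives, so these counts are not set against a background.

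Leaving out probe sets of the _s_at, _x_at and _a_at types moved Bmf to its probe set under the floor and turned it to -0.30 on the Bmi1ΔIEC array and -0.22 on the Mel18ΔIEC array. It gave 1 higher and 2 lower on the Bmi1ΔIEC array and 0 higher on the Mel18ΔIEC and DKO arrays. On the DKO array it gave 0 lower than on the Mel18ΔIEC array and 1 lower than on the Bmi1ΔIEC array. The gap between Ripk3 and the BH3-only median on the Bmi1ΔIEC array became -1.71. No scaling changed the sign of any member's difference. The centring on genes that reached the floor shifted the median gene by -0.12 on the Bmi1ΔIEC array.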
